A study of Mus musculus with 20 samples.

Results

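Transcript levels of 9 genes that pattern the neural tube from dorsal to ventral were compared in bulk RNA sequencing of embryo-like structures that mouse embryonic stem cells form in culture. The genes were Pax6, Irx3, Irx5, Dbx1, Dbx2, Nkx6-1, Nkx6-2, Olig2 and Olig3, picked by name from 54446 gene IDs in the deposited tables, where each name had 1 ID. Their level was read as TPM (a transcript's share of its library, corrected for length and scaled to a common total), in 15 libraries. Of these genes, 6 had a mean of at least 1 TPM over all libraries and were tested among 14290 genes. Dbx2, Nkx6-2 and Olig3 lay under that limit. Pax6, Dbx1 and Olig2 passed it through the groups where they were high, so a difference between groups was built into their passing.

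All 9 genes encode transcription factors that divide the progenitors of the spinal cord into stacked domains along the dorsoventral axis. Hedgehog ligand from the notochord and floor plate induces the ventral genes Olig2, Nkx6-1 and Nkx6-2, while BMP and WNT ligands from the roof plate act dorsally, where Olig3 marks the most dorsal progenitors. Pax6, Irx3 and the Dbx genes occupy broad and intermediate territory, are favoured by retinoic acid from the somites, and several neighbours repress each other across domain borders.

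The structures came from F1G4 mouse embryonic stem cells carrying 2 nuclear reporters, one for Brachyury (T::H2B-mCherry) and one for Sox2 (Sox2::H2B-Venus). All 5 groups share these alleles and a 3 µM pulse of CHIR99021, an activator of WNT signalling, given at 48 h. The 96h group is the precursor stage, with 10 pooled structures per library; every other group was taken at 120 h with 6 pooled structures per library. Gastruloid structures had no Matrigel, TLSMG structures grew in Matrigel (a basement membrane gel), TLSMGC structures had Matrigel with CHIR, and TLSMGCL structures had Matrigel with CHIR and LDN, an inhibitor of BMP receptors. The doses and times of these later additions are not given in the sources used here. Each group has 3 libraries that the labels call biological replicates, all from 1 parental line, and each library mixes all cell types of structures picked for an asymmetric pole. A lower level in such a mixture can come from fewer expressing cells or from less RNA per cell, and these cannot be told apart.

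Relative depth, read as coverage per FPKM, ran from 3.12 to 6.84 over the libraries, and 13688 to 14494 genes reached 1 TPM. Libraries of 1 group correlated at r = 0.985 to 0.991 across genes, and none was left out. Neural marker RNA was found in every group, as the summed level of Sox1, Sox2, Sox3, Hes5 and Cdh2. It was highest in Gastruloid (408 to 481 TPM) and next in TLSMG (276 to 365 TPM). The groups with CHIR had 187 to 206 TPM without LDN and 194 to 226 TPM with it, and 96h had 154 to 189 TPM. Cdh2 is also made by mesoderm, and it was most of the sum at 96h (108 to 116 TPM) and with CHIR. It held 131 to 158 TPM in TLSMGC and 120.5 to 158.7 TPM in TLSMGCL, so the order of these groups does not rest on neural RNA alone. Sox1 alone, the most neural of the 5, spanned 0.744 to 32.1 TPM. Hindbrain and spinal cord Hox markers summed to at least 127 TPM in every library, while forebrain and midbrain markers stayed at or under 17.5 TPM. Hoxb1 alone held 227, 228 and 224 TPM at 96h, and Emx2 alone held 12.6, 13.4 and 11.3 TPM in TLSMGC. Each library mixes all cell types, so neither sum shows the region of the neural cells. No library had counts of reads, so no counting interval is given, and a value of 0 means only that the gene is listed at 0.

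Pax6, Dbx1, Dbx2 and Olig2 were at or near 0 TPM in both groups with CHIR, whereas Nkx6-1 was not, and the promoter windows of these 5 genes are shown because of that contrast. Nkx6-2 and Olig3 were also near 0 with CHIR, at no more than 0.294 and 0.285 TPM. Low levels were not particular to CHIR. At 96h Dbx1, Dbx2, Nkx6-2 and Olig3 held at most 0.165, 0.104, 0.268 and 0.138 TPM. In Gastruloid Olig3 held at most 0.198 TPM. The windows of Nkx6-2 and Olig3 are not shown and, like that of Nkx6-1, held none of the motifs searched. Each window shown runs from 250 bases before to 50 bases after a RefSeq transcription start (mouse build GRCm38.p6), in the direction of transcription. The windows are chr2:105668646-105668945 on the plus strand for Pax6, chr7:49636786-49637085 on the minus strand for Dbx1, chr15:95654722-95655021 on the minus strand for Dbx2, chr16:91225300-91225599 on the plus strand for Olig2 and chr5:101664662-101664961 on the minus strand for Nkx6-1. Capitals mark matches to a motif searched, on either strand.
Pax6: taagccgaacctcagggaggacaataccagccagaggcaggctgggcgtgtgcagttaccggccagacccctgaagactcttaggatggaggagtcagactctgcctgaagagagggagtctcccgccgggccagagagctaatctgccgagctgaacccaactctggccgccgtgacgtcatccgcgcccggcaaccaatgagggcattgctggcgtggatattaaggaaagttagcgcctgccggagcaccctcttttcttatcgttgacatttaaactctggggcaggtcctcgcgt
Dbx1: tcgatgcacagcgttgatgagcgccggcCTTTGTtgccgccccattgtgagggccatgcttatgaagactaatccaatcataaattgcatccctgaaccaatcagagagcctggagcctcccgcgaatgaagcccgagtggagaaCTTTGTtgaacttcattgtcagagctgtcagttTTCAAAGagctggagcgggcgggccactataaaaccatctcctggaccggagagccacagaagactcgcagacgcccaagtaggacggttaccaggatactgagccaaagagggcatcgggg
Dbx2: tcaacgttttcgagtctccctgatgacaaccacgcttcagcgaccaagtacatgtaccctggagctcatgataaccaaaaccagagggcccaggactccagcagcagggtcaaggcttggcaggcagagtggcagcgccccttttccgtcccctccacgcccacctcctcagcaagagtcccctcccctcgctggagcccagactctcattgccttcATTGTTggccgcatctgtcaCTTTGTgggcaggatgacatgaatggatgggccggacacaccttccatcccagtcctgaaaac
Olig2: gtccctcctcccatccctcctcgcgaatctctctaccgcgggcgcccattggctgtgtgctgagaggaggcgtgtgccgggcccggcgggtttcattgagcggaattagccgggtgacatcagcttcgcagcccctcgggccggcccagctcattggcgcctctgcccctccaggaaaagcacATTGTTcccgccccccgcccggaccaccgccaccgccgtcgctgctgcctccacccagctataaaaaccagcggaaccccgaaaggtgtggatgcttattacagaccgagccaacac
Nkx6-1: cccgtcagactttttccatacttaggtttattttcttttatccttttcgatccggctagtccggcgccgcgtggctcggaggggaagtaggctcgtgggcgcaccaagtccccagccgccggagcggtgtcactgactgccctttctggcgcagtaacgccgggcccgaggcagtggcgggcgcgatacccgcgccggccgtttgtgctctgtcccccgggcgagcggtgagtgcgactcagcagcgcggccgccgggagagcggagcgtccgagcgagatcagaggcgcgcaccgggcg
The motifs searched were CTTTGAA and CTTTGAT for TCF/LEF, the DNA-binding partners of WNT signalling, GACCACCC for GLI, the effectors of hedgehog signalling, AGGTCA for retinoic acid receptors, TAATTA for homeodomain factors, and ACAAAG and AACAAT for SOX factors. The choice of motifs was made after a first look at matches. Dbx1 held the letters CTTTGAA on the reverse strand, 72 bases before the start, and ACAAAG at 222 and 105 bases before it. Dbx2 held ACAAAG and AACAAT at 13 and 33 bases before the start, and Olig2 held AACAAT at 67 bases before it. Neither the Pax6 window shown nor that of Nkx6-1 held any of these letters; a second Pax6 start had ACAAAG 154 bases before it. Over all 32851 RefSeq windows of this length, CTTTGAA was in 5.14%, CTTTGAT in 3.73%, GACCACCC in 0.807%, AGGTCA in 16.3%, TAATTA in 5.29%, ACAAAG in 18.7% and AACAAT in 10.7%. CTTTGAA and ACAAAG share the letters CTTTG when read on opposite strands but need different following bases. Matches are strings of letters and were not tested as binding sites. The windows of Irx3, Nkx6-2 and Olig3 held none of the 7 motifs, and Irx5 had no window in the table, so 8 of 9 genes were matched.

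**Figure D1:**
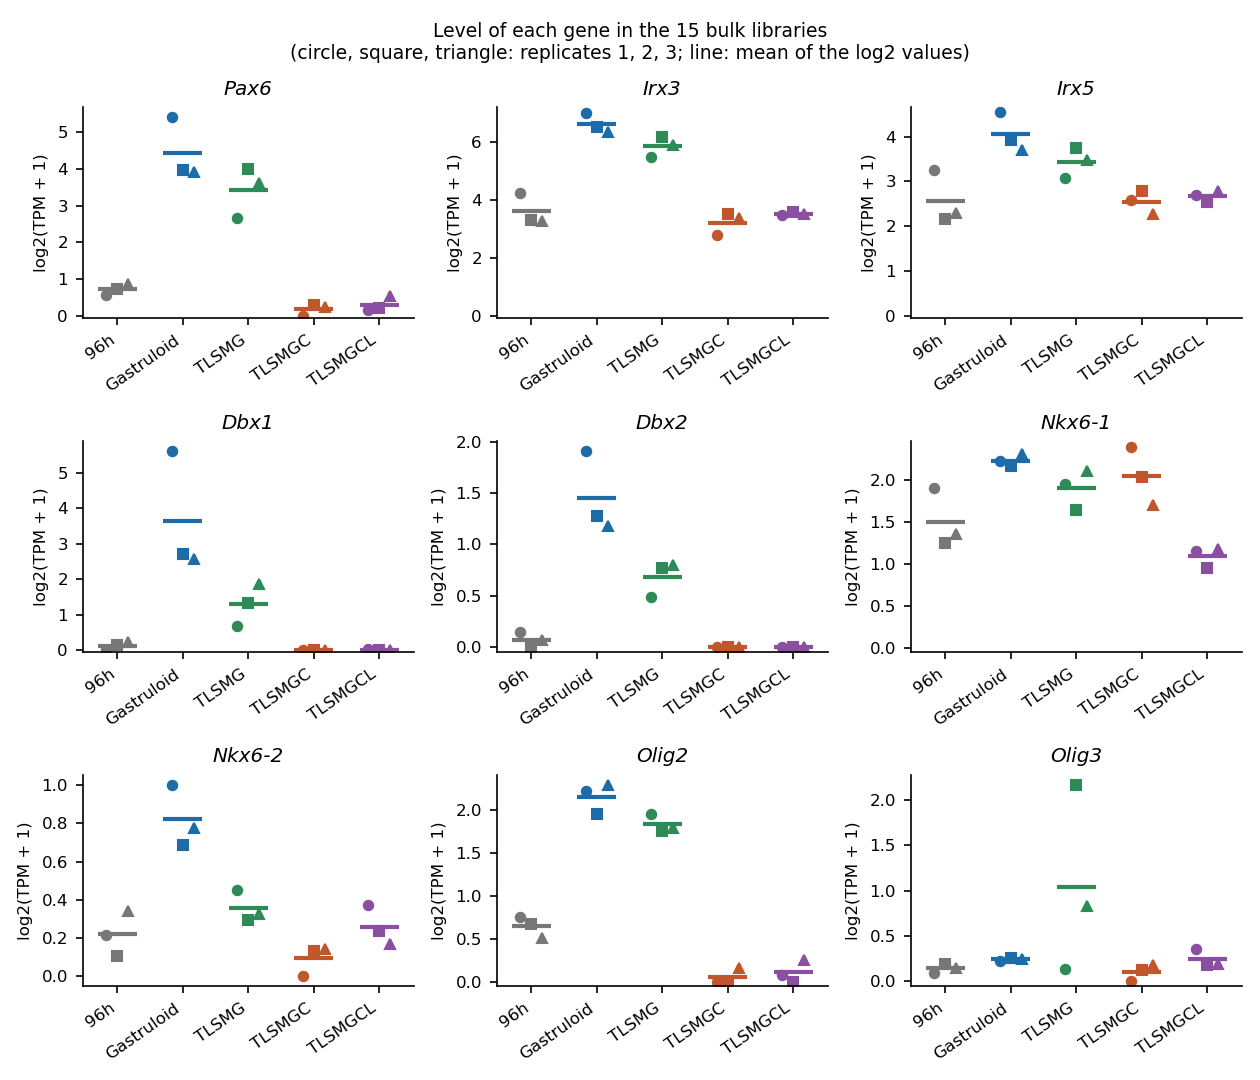
Level of each of the 9 genes as log2(TPM + 1) in the 15 libraries, by group; circles, squares and triangles are replicates 1, 2 and 3, and lines are means of the 3 log2 values. Most genes peak in Gastruloid and TLSMG and sit low in TLSMGC and TLSMGCL, while Nkx6-1 has its lowest group in TLSMGCL and Olig3 has 1 high TLSMG library at 3.49 TPM.

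Differences below are on the log2(TPM + 1) scale with their standard error (SE), from 1 limma fit over all 14290 genes and 15 libraries. A gene passed the test when its Benjamini-Hochberg adjusted p was under 0.05 over all genes. The added 1 shrinks the differences of low genes. By the moderated F test, all 6 tested genes varied over the 5 groups, as did 73.5% of all genes. The same test over the 120 h groups alone called all 6, and 62.7% of all genes. Levels of different genes can be set side by side because TPM is per length. In the Gastruloid libraries Irx3 was the most abundant of the 9 genes, and Olig3 the least.

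Pax6, the paired-box factor found across most of the ventricular zone of the neural tube (ENSMUSG00000027168.21, chromosome 2, 105668900 to 105697364, plus strand), was strongly raised in Gastruloid and TLSMG and nearly absent with CHIR. At 96h its libraries held 0.492, 0.663 and 0.844 TPM. Gastruloid held 41.6, 14.8 and 14.1 TPM, and TLSMG held 5.31, 15.0 and 11.3 TPM. These last groups overlap, and both lie above every 96h library. With CHIR the gene was at 0, 0.228 and 0.189 TPM in TLSMGC. TLSMGCL had 0.126, 0.154 and 0.446 TPM, so every library with CHIR was below every 96h library. Pax6 rose from 96h to Gastruloid by 3.71 ± 0.36 (SE; adjusted p = 2.97e-06) and from 96h to TLSMG by 2.69 ± 0.36 (adjusted p = 4.89e-05). From TLSMG to TLSMGC it fell by 3.24 ± 0.36 (adjusted p = 1.38e-05). TLSMGC and TLSMGCL differed by 0.12, with a 95% interval of -0.66 to 0.91. The opposite-strand transcript Pax6os1 overlaps the gene and was listed at 0.0754 TPM or less.

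Irx3, an Iroquois homeodomain factor of dorsal and intermediate progenitors that represses Olig2 at the motor neuron progenitor border (ENSMUSG00000031734.13, chromosome 8, 91798525 to 91802067, minus strand), was the most abundant of the 9 and was also present outside the high groups. Its libraries at 96h held 17.9, 8.92 and 8.83 TPM. Gastruloid reached 128, 92.0 and 81.4 TPM, and TLSMG 44.2, 72.2 and 58.8 TPM. The 3 groups did not overlap, in the order Gastruloid, TLSMG, 96h. TLSMGC held 6.04, 10.4 and 9.39 TPM. TLSMGCL held 10.4, 11.0 and 10.6 TPM. Both groups with CHIR overlapped the 96h range, where Pax6 had been below it. Irx3 rose by 3.02 ± 0.26 from 96h to Gastruloid (adjusted p = 8.62e-07) and fell by 2.63 ± 0.26 from TLSMG to TLSMGC (adjusted p = 4.64e-06). The difference of TLSMGCL from TLSMGC was 0.31, interval -0.26 to 0.87.

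Irx5, the second Iroquois gene of the set (ENSMUSG00000031737.11, chromosome 8, 92357625 to 92376286, plus strand), lies in the same gene cluster as Irx3 and moved in the same direction with a smaller difference. It held 8.51, 3.43 and 3.93 TPM at 96h. Gastruloid had 22.3, 14.1 and 12.0 TPM, and TLSMG 7.47, 12.4 and 10.0 TPM. TLSMG thus overlapped both neighbours, reaching down into the 96h range and up into the Gastruloid range. TLSMGC had 4.99, 5.93 and 3.79 TPM. TLSMGCL had 5.50, 4.84 and 5.94 TPM, and neither group with CHIR overlapped TLSMG. Irx5 rose by 1.49 ± 0.28 from 96h to Gastruloid (adjusted p = 0.000835). Its rise to TLSMG, 0.86 ± 0.28 (adjusted p = 0.0216), missed the threshold without 96h replicate 2 (0.098) or 3 (0.0815), without TLSMG replicate 2 (0.088) or 3 (0.0555), with no filter (0.0508) and with these groups fitted alone (0.0539). Its fall from TLSMG to TLSMGC, 0.88 ± 0.28 (adjusted p = 0.0219), missed it without TLSMG replicate 2 (0.0891) or 3 (0.0572), or TLSMGC replicate 3 (0.0872), and with no filter (0.0543).

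Other Iroquois and related genes gave a reference for the cluster. Of Irx1, Irx2, Irx4, Irx6, Nkx6-3, Olig1 and Pax4, only Irx1 and Irx2 were tested. Irx1 held 33.3, 27.4 and 28.1 TPM in Gastruloid and 14.8, 19.6 and 17.7 TPM in TLSMG, a fall of 0.74 ± 0.22 (adjusted p = 0.0183) that missed the threshold without Gastruloid replicate 1 (0.069) or TLSMG replicate 1 (0.066). Irx2 held 6.97, 10.9 and 8.19 TPM in TLSMG and 4.70, 5.89 and 4.07 TPM in TLSMGC, a fall of 0.71 ± 0.18 (adjusted p = 0.00769). Fto, the ubiquitous demethylase gene whose introns contact Irx3, held 69.2 to 86.7 TPM in all 15 libraries. Irx3os, which overlaps Irx3 on the opposite strand, reached 2.45 TPM in Gastruloid replicate 1 and at most 0.974 TPM elsewhere. The sources used here do not say whether the authors' counting used strand, so reads of overlapping pairs cannot be assigned with certainty.

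Dbx1, a homeodomain factor of the p0 progenitors at the middle of the neural tube (ENSMUSG00000030507.6, chromosome 7, 49631499 to 49636849, minus strand), was high in Gastruloid and had the highest ratio of its top library to the next in that group. Gastruloid held 47.9, 5.51 and 4.95 TPM. At 96h it was at 0, 0.103 and 0.165 TPM, and TLSMG held 0.609, 1.50 and 2.61 TPM. These 3 groups did not overlap, in the order Gastruloid, TLSMG, 96h. The gene was listed at 0 in every TLSMGC library, and TLSMGCL had 0.0316, 0 and 0 TPM. Dbx1 rose by 3.51 ± 0.58 from 96h to Gastruloid (adjusted p = 0.000302). It was lower in TLSMG than in Gastruloid by 2.34 ± 0.58 (adjusted p = 0.00647), and by 1.35 without Gastruloid replicate 1 (adjusted p = 0.00261). Its difference of TLSMGC from TLSMG, -1.29 ± 0.58, missed the threshold (adjusted p = 0.0922) and passed it without that same library (adjusted p = 0.000545), which enters the shared estimate of spread. It also passed with a pseudocount of 0.1 (adjusted p = 0.00111) and with these groups fitted alone (0.00873).

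Dbx2, the paralogue that extends further dorsally and ventrally than Dbx1 (ENSMUSG00000045608.7, chromosome 15, 95623563 to 95655960, minus strand), followed the same order at lower levels. It held 2.77, 1.42 and 1.26 TPM in Gastruloid, 0.405, 0.707 and 0.734 TPM in TLSMG, and 0.104, 0 and 0.0445 TPM at 96h. Both groups with CHIR were listed at 0 in all 6 libraries. Gastruloid, TLSMG and the groups with CHIR did not overlap. In the fit without a filter on low genes, Dbx2 fell by 0.77 ± 0.15 from Gastruloid to TLSMG (adjusted p = 0.00444) and by 0.69 ± 0.15 from TLSMG to TLSMGC (adjusted p = 0.00645).

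Olig2, the basic helix-loop-helix factor of motor neuron progenitors (ENSMUSG00000039830.9, chromosome 16, 91225457 to 91228677, plus strand), had even replicates and was the ventral gene that changed most. It held 0.684, 0.594 and 0.426 TPM at 96h. Gastruloid had 3.65, 2.87 and 3.89 TPM, and TLSMG 2.85, 2.37 and 2.45 TPM. Every Gastruloid library was above every TLSMG library, by a narrow margin. TLSMGC had 0, 0 and 0.112 TPM and TLSMGCL 0.0522, 0 and 0.190 TPM. All 6 libraries with CHIR were therefore below the 96h range. Olig2 rose by 1.51 ± 0.13 from 96h to Gastruloid (adjusted p = 5.69e-07) and fell by 1.78 ± 0.13 from TLSMG to TLSMGC (adjusted p = 2.30e-07). It was also lower in TLSMGC than at 96h, by 0.59 ± 0.13 (adjusted p = 0.00188). The difference of TLSMG from Gastruloid, -0.33 ± 0.13, missed the threshold (adjusted p = 0.054), and ranged from 0.0058 to 0.434 in adjusted p over the alternatives.

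Nkx6-1, the homeodomain factor of the ventral progenitor domains (ENSMUSG00000035187.10, chromosome 5, 101658139 to 101664996, minus strand), departed from the other genes. Its libraries held 2.74, 1.36 and 1.56 TPM at 96h, 3.68, 3.46 and 3.93 TPM in Gastruloid and 2.87, 2.12 and 3.28 TPM in TLSMG. TLSMGC held 4.24, 3.10 and 2.23 TPM, overlapping both TLSMG and Gastruloid. TLSMGCL held 1.23, 0.935 and 1.27 TPM and lay below every library of the other groups. The difference of TLSMGC from TLSMG was 0.14, with an interval of -0.28 to 0.56. In TLSMGCL the gene was lower than in TLSMGC by 0.94 ± 0.20 (adjusted p = 0.0354) and lower than in TLSMG by 0.80 ± 0.20 (adjusted p = 0.00464). The first of these calls was close to the threshold: leaving out single libraries gave adjusted p from 0.0156 to 0.115, and it was lost without Gastruloid replicate 2 or 3, TLSMG replicate 1, TLSMGC replicate 1 or 2, or any 1 TLSMGCL library. It was also lost with no filter (0.0862) and with these groups fitted alone (0.156). Nkx6-1 also marks pancreatic endoderm and later neurons. The pancreas markers Pdx1, Ptf1a, Mnx1, Neurog3 and Nkx2-2 summed to 3.78 to 4.33 TPM in TLSMGC and 5.34 to 5.78 TPM in TLSMGCL, nearly all of it Mnx1 (3.60 to 4.22 and 5.02 to 5.66 TPM), which motor neurons also make. Pdx1, the defining marker, was listed at 0 in the 3 TLSMGC libraries and reached at most 0.0304 TPM in TLSMGCL, and Nkx2-2 was listed at 0 in all 6.

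Nkx6-2, its paralogue (ENSMUSG00000041309.17, chromosome 7, 139579376 to 139582797, minus strand), was low in all groups and overlaps Inpp5a on the opposite strand. It held 1.00, 0.608 and 0.710 TPM in Gastruloid, 0.366, 0.225 and 0.255 TPM in TLSMG, and 0.162, 0.0752 and 0.268 TPM at 96h. The Gastruloid libraries lay above all others. TLSMGC had 0, 0.0977 and 0.106 TPM and TLSMGCL 0.294, 0.180 and 0.126 TPM. In the fit without a filter Nkx6-2 fell by 0.46 ± 0.09 from Gastruloid to TLSMG (adjusted p = 0.00388).

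Olig3, which marks the dorsal-most progenitor domains (ENSMUSG00000045591.6, chromosome 10, 19356533 to 19358604, plus strand), was at or below 0.285 TPM in 13 of 15 libraries. The exceptions were TLSMG replicates 2 and 3, with 3.49 and 0.776 TPM, while TLSMG replicate 1 held 0.0977 TPM. TLSMG therefore contained both the highest library of the set and one inside the range of the other groups. No comparison of Olig3 passed the limma test in the fit without a filter, 4 had an unadjusted p under 0.05, all of them with TLSMG, and the difference of TLSMG from Gastruloid was 0.80 ± 0.35 (adjusted p = 0.155).

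**Figure D2:**
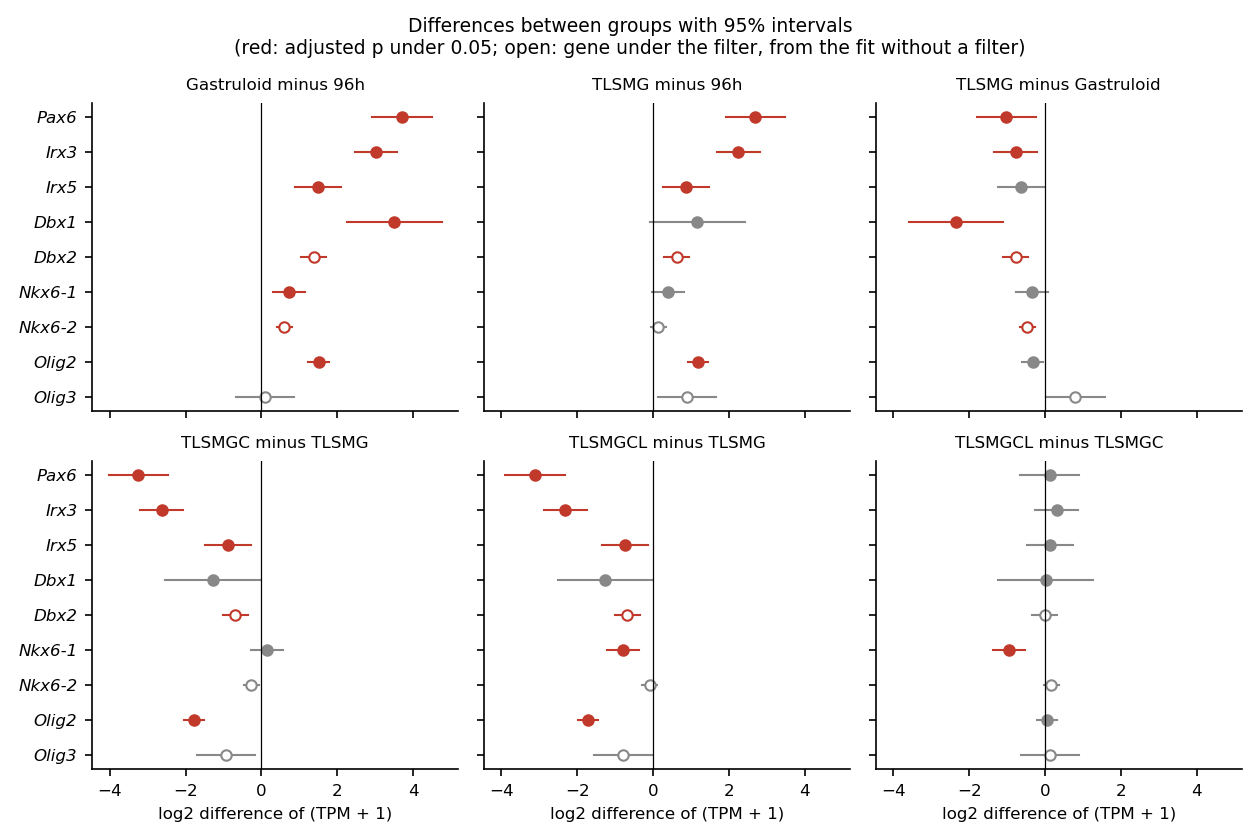
Differences between 2 groups in log2(TPM + 1) for the 9 genes, with 95% intervals; red marks adjusted p under 0.05, and open circles are the 3 genes under the filter, taken from the fit without it. Pax6, Irx3 and Olig2 fall far below 0 in TLSMGC and TLSMGCL against TLSMG, while Nkx6-1 stands apart from 0 in TLSMGCL against TLSMGC.

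Set beside the whole transcriptome, the rise from 96h took in every tested gene of the set in Gastruloid. Comparisons that use the same group share its libraries, so their counts are not independent. Where a count of 0 is given for a direction, no gene of the set reached an unadjusted p under 0.05 in that direction either (limma). From 96h to Gastruloid, 6 of 6 passed the test as higher and none as lower, while 20.8% of all genes passed as higher and 20.5% as lower (27.5% and 16.6% with FPKM). Pax6, Dbx1 and Olig2 passed the filter through the groups where they were high, so this count was favoured in advance. The same holds for the counts below that include them. With no filter 8 of the 9 genes passed, and Olig3 did not (0.098 ± 0.35, adjusted p = 0.958). The share of all genes in that fit is not given here. From 96h to TLSMG, 4 of 6 were higher, against 33.5% higher and 12.5% lower of all genes. Dbx1 (1.17 ± 0.58, adjusted p = 0.116, but 0.00426 with a pseudocount of 0.1 and 0.013 with these groups fitted alone) and Nkx6-1 (0.40 ± 0.20, adjusted p = 0.113) did not pass. Without 96h replicate 1, the highest library of its group for Nkx6-1, that gene passed at 0.60 (adjusted p = 0.0222). The median of the differences of all genes was 0.14 for TLSMG minus 96h and 0.13 for TLSMG minus Gastruloid, so the all-gene shares lean upward in both. After median-of-ratios scaling these shares were 22.0% and 23.4% for TLSMG against 96h, and Irx5 missed the threshold (0.70, adjusted p = 0.0542).

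Growth in Matrigel was compared by TLSMG against Gastruloid. Of the 6 genes, 3 were lower and 0 higher, against 7.87% and 31.5% of all genes (18.1% and 19.3% after median-of-ratios scaling). Pax6 fell by 1.01 ± 0.36 (adjusted p = 0.0412), Irx3 by 0.77 ± 0.26 (adjusted p = 0.032) and Dbx1 by 2.34. The calls of Pax6 and Irx3 rest on single libraries: without Gastruloid replicate 1, the differences were -0.53 for Pax6 (adjusted p = 0.19) and -0.59 for Irx3 (adjusted p = 0.134), and without TLSMG replicate 1 they were -0.63 (0.177) and -0.59 (0.124). Both also missed the threshold without TLSMG replicate 3, at adjusted p of 0.0626 and 0.0665, and with no filter on low genes, at 0.0999 and 0.0788, where Dbx2 and Nkx6-2 passed instead beside Dbx1. Pax6 further missed it with a pseudocount of 0.1 (0.136), with these groups fitted alone (0.128) and with replicate number as a block (0.0624). Either median-of-ratios scaling or FPKM added Irx5 and Olig2, for 5 lower genes.

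CHIR in Matrigel was compared by TLSMGC against TLSMG. Of the 6 genes, 4 (Pax6, Irx3, Irx5 and Olig2) were lower and none higher, with 30.5% of all genes lower and 10.4% higher (18.0% and 19.2% after median-of-ratios scaling, which moved the all-gene median from -0.16 to about 0). The median difference was -1.53 over the 6 genes. Irx5 missed the threshold after that scaling (-0.73, adjusted p = 0.0552). Against Gastruloid, 5 of 6 were lower in TLSMGC with 21.2% of all genes, the exception being Nkx6-1 (-0.19, interval -0.61 to 0.23). Against 96h, TLSMGC had 1 higher gene, Nkx6-1 (0.54 ± 0.20, adjusted p = 0.0405), and 1 lower gene, Olig2, where 20.6% and 20.1% of all genes passed. The Nkx6-1 call was lost without 96h replicate 2 (0.157) or 3 (0.123), TLSMGC replicate 1 (0.174) or 2 (0.0829), or Gastruloid replicate 2 (0.0504), with no filter (0.0896) and with these groups fitted alone (0.112).

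Adding LDN to CHIR was compared by TLSMGCL against TLSMGC, where 1 of 6 genes, Nkx6-1, passed as lower and none as higher, and 0 passed with no filter or with these groups fitted alone. Few genes passed in all, 0.777% as lower and 0.406% as higher (0.707% and 0.728% after median-of-ratios scaling). Against TLSMG, 5 of 6 genes were lower in TLSMGCL, with 35.6% of all genes lower and 9.31% higher (19.2% and 19.9% after median-of-ratios scaling, the unscaled median being -0.18). Dbx1 missed the threshold (-1.27 ± 0.58, adjusted p = 0.0898), as in TLSMGC, and passed it under the same alternatives (0.00126 and 0.00957). The Irx5 call (-0.75 ± 0.28, adjusted p = 0.0425) was lost without TLSMG replicate 2 (0.15) or 3 (0.0955), any 1 TLSMGCL library (0.0611 to 0.119), Gastruloid replicate 2 (0.0512) or TLSMGC replicate 1 (0.0523), and with median-of-ratios scaling (0.129), FPKM (0.0872) or no filter (0.0951). Against Gastruloid all 6 were lower, with 21.1% of all genes. Against 96h only Olig2 was lower, by 0.54 ± 0.13 (adjusted p = 0.00393), with 22.1% of all genes.

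In order of mean level, Gastruloid stood above TLSMG for 8 of the 9 genes, the exception being Olig3. The difference of TLSMG from Gastruloid did not pass the test for Irx5, Nkx6-1 and Olig2. At the low end, that of TLSMGCL from TLSMGC did not pass for Pax6, Irx3, Irx5, Dbx1 or Olig2, and neither of these groups passed against 96h for Pax6, Irx3, Irx5 or Dbx1. For Pax6 in TLSMGC against 96h this depended on the fit, since it passed with a pseudocount of 0.1 (-1.83, adjusted p = 0.0167) and with these groups fitted alone (adjusted p = 0.0258). For Olig2, 96h stood above both. For Nkx6-1 the order of means was Gastruloid, TLSMGC, TLSMG, 96h and TLSMGCL, and no neighbouring pair in that order passed the test.

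Most general neural progenitor genes were also lower with CHIR. Of 11 tested (Sox, Hes and related genes), 8 were lower and 0 higher in TLSMGC than in TLSMG, also after median-of-ratios scaling and with FPKM, with a median difference of -1.54. In that comparison 30.5% of all genes passed as lower and 10.4% as higher (18.0% and 19.2% after median-of-ratios scaling). From 96h to Gastruloid 7 were higher and 1 lower, against 20.8% and 20.5% of all genes. From Gastruloid to TLSMG 3 were lower, against 7.87% of all genes (18.1% after median-of-ratios scaling). Sox1, an early neural factor, held 32.1, 27.4 and 20.7 TPM in Gastruloid and 0.744, 0.757 and 1.78 TPM at 96h. It fell from 13.6, 21.5 and 18.4 TPM in TLSMG to 1.78, 1.74 and 2.79 TPM in TLSMGC, by 2.60 ± 0.22 (adjusted p = 9.02e-07). Sox21 fell from 8.80, 16.1 and 12.4 TPM to 0.863, 1.34 and 0.334 TPM, by 2.87 ± 0.23 (adjusted p = 6.38e-07). No gene of this list passed between TLSMGCL and TLSMGC, where 2 (Ncam1 and Sox3, both higher) had an unadjusted p under 0.05 in limma.

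Each gene was divided by Sox1 in the same library, a description added after the values were seen, and the ratios went in different directions with CHIR. Mean ratios in TLSMG, TLSMGC and TLSMGCL were 0.557, 2.53 and 2.75 for Irx5 and 0.0171, 0.0315 and 0.0988 for Nkx6-2. They were 0.0854, 0 and 0.0048 for Dbx1, 0.0342, 0 and 0 for Dbx2, and 0.151, 0.013 and 0.042 for Olig2. For Olig3 they were 0.0705, 0.0341 and 0.0915. Pax6 per Sox1 was 0.541 to 1.30 in Gastruloid and 0.391 to 0.698 in TLSMG, but 0 to 0.131 in TLSMGC and 0.0572 to 0.240 in TLSMGCL. Irx3 per Sox1 was 3.19 to 3.36 in TLSMG and 3.36 to 3.98 in Gastruloid. With CHIR it was 3.37 to 6.02 (TLSMGC) and 4.72 to 5.79 (TLSMGCL), and so was not below TLSMG in any library with CHIR. Nkx6-1 per Sox1 was 0.0986 to 0.212 in TLSMG. It was higher in every library with CHIR, at 0.802 to 2.39 (TLSMGC) and 0.490 to 0.683 (TLSMGCL). High ratios of Nkx6-1 and Irx3 were not particular to CHIR. At 96h, Nkx6-1 per Sox1 was 3.68, 1.80 and 0.881, and Irx3 per Sox1 was 24.1, 11.8 and 4.97. Pax6 per Sox1 at 96h was 0.661, 0.876 and 0.475. Sox1 was under 3 TPM in 96h and both groups with CHIR, where a ratio to it is imprecise, and Irx3, Irx5 and Nkx6-1 are also made by mesoderm or endoderm cells.

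**Figure D3:**
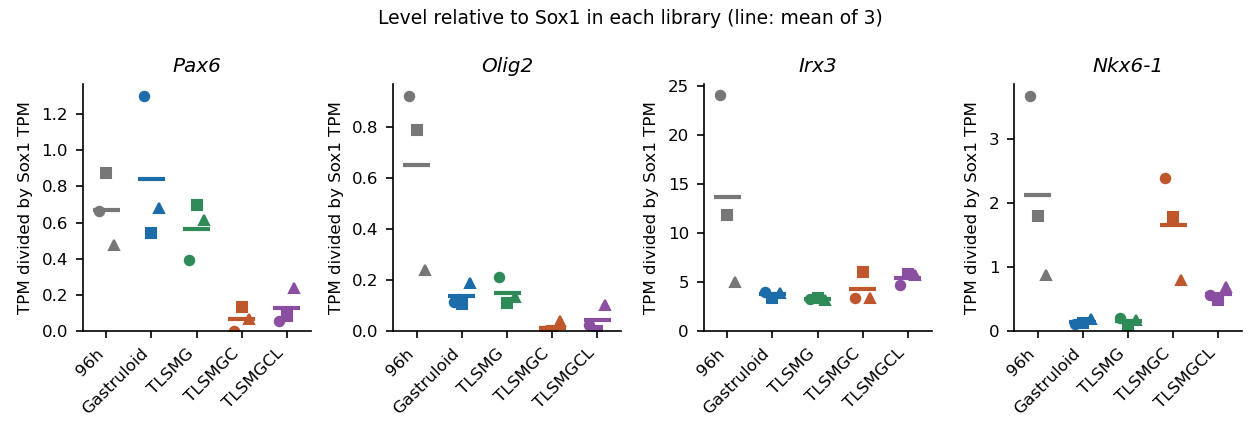
Ratio of TPM to Sox1 TPM in each library for Pax6, Olig2, Irx3 and Nkx6-1, with the mean of 3 as a line and axes from 0. Pax6 and Olig2 ratios are lowest in the groups with CHIR, Irx3 ratios lie between 3.19 and 6.02 in all groups at 120 h, and Nkx6-1 ratios are higher with CHIR than in TLSMG. The highest mean ratios of Irx3 and Nkx6-1 are at 96h (13.6 and 2.12).

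Dorsal genes outside the set went in both directions with CHIR. Of 20 intermediate and dorsal progenitor genes, 8 passed the filter on low genes, and 5 of these were higher and 0 lower in TLSMGC than in TLSMG, under every scaling and without any 1 library. Their median difference was 0.63. Of all genes tested, 10.4% passed as higher and 30.5% as lower. Of the 12 genes under the filter, 7 had every TLSMGC library below every TLSMG library and 0 had every one above. How often all genes under the filter separate in this way was not counted, so these 12 have no background here. In the fit without a filter, 5 of the 20 were higher and 5 lower, and the share of all genes in that fit is not given here. Among the lower genes, Lmx1a, a roof plate factor, held 1.14, 1.36 and 1.12 TPM in TLSMG and 0, 0.0528 and 0.0845 TPM in TLSMGC. Prdm13, a factor of dorsal interneuron progenitors, held 0.385, 4.42 and 1.57 TPM in TLSMG and 0.0901, 0.120 and 0.0868 TPM in TLSMGC. Zic1, a roof plate and dorsal factor that somites also make, held 2.37, 10.4 and 3.65 TPM in TLSMG and 93.4, 85.8 and 73.3 TPM in TLSMGC, a rise of 3.91 ± 0.32 (adjusted p = 7.69e-07). Msx1, a BMP target of the dorsal neural tube, rose by 1.13 ± 0.20 (adjusted p = 0.000573), to 35.5, 44.3 and 42.3 TPM. Roof plate Wnt1 was listed at 0 in all 6 libraries with CHIR. With LDN, Msx1 fell from TLSMGC by 1.16 ± 0.20 (adjusted p = 0.0125) and Lmx1b by 1.07 ± 0.16 (adjusted p = 0.00497), while Zic2 rose by 0.76 ± 0.14 (adjusted p = 0.0223). The Msx1 call with LDN was lost without TLSMGC replicate 2 (0.0604) or TLSMGCL replicate 1 (0.0516) or 3 (0.0573). That of Zic2 was lost with no filter (0.0561), with these groups fitted alone (0.153), and without TLSMGC replicate 2 (0.102) or 3 (0.0609) or TLSMGCL replicate 1 (0.1) or 3 (0.0796), and that of Lmx1b with the latter fit (0.0858). From Gastruloid to TLSMG, 4 of the 8 rose and 0 fell, where 31.5% of all genes passed as higher and 7.87% as lower. After median-of-ratios scaling or with FPKM 3 rose and 1 fell, and without 1 library 2 to 4 rose. The all-gene shares after median-of-ratios scaling were 19.3% and 18.1%. Among the genes that rose was Msx1, from 2.98, 2.56 and 2.75 TPM to 11.9, 26.3 and 18.2 TPM (2.33 ± 0.20, adjusted p = 1.34e-05). Msx1 and Zic2 fell from 96h to Gastruloid, and Pax7 rose by 1.45 ± 0.20 (adjusted p = 7.37e-05).

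In the fit without a filter, 6 of 12 ventral and floor plate genes were lower in TLSMGC than in TLSMG. The share of all genes in that fit is not given here, so this count has no background. Only 4 of the 12 passed the filter and were tested. From TLSMG to TLSMGC, 2 of these 4 fell, with 30.5% of all genes (18.0% after median-of-ratios scaling). Spon1, a floor plate adhesion protein, fell from 6.95, 6.65 and 7.36 TPM to 1.20, 1.05 and 0.735 TPM (2.01 ± 0.12, adjusted p = 4.48e-08). Sulf1 fell by 0.83 ± 0.09 (adjusted p = 1.56e-05). None of the 4 passed between Gastruloid and TLSMG, where Sulf1 and Slit1 were higher at an unadjusted p under 0.05 in limma, or between TLSMGCL and TLSMGC, where Sulf1 was. After median-of-ratios scaling or with FPKM, 1 passed as lower in the former comparison and 1 as higher in the latter. Shh, the ventral ligand, ranged from 0.185 to 1.80 TPM over all libraries. Nkx2-2, the factor of the domain next to the floor plate, was listed at 0 in the 6 libraries with CHIR and reached at most 0.152 TPM elsewhere.

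Of 9 hedgehog pathway genes tested, 7 were lower and 0 higher in TLSMGC than in TLSMG, a count that scaling changed: it was 3 after median-of-ratios scaling, 5 with FPKM and 3 to 8 without 1 library. The share of all genes passing as lower was 30.5% (18.0% after median-of-ratios scaling and 22.2% with FPKM). The median difference was -0.43, against -0.16 for all genes. From 96h to Gastruloid 5 were higher and 0 lower, against 20.8% and 20.5% of all genes. From Gastruloid to TLSMG 3 were higher, a share near the 31.5% of all genes, and 0 lower (1 was lower at an unadjusted p under 0.05 in limma). Without 1 library 1 to 3 were higher and 0 to 1 lower, and 1 was higher and 1 lower after median-of-ratios scaling, and 1 higher and 2 lower with FPKM. Gli1, a direct target of the pathway, held 7.65, 6.50 and 8.49 TPM in TLSMG and 3.47, 2.81 and 2.62 TPM in TLSMGC, a fall of 1.11 ± 0.14 (adjusted p = 3.36e-05). The co-receptors Gas1 and Boc fell by 1.45 ± 0.17 (adjusted p = 1.91e-05) and 1.40 ± 0.14 (adjusted p = 4.01e-06). Between TLSMGCL and TLSMGC no gene of this list passed, and 3, Gli1 among them, were lower at an unadjusted p under 0.05 in limma. Somites respond to hedgehog as well, and somite markers summed to 945 to 1114 TPM in TLSMG and 694 to 739 TPM in TLSMGC; their part in these values was not tested.

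Of 10 retinoic acid genes tested, 2 were higher and 6 lower in Gastruloid than at 96h, against 20.8% and 20.5% of all genes. In TLSMG 1 was lower than in Gastruloid, against 7.87% of all genes. That count was 0 with no filter and 0 to 2 without 1 library. It was 5 after median-of-ratios scaling or with FPKM, against 18.1% and 18.9% of all genes. In TLSMGC 3 were higher and 5 lower than in TLSMG, against 10.4% and 30.5% of all genes. After median-of-ratios scaling these were 3 and 3, against 19.2% and 18.0%. Aldh1a2, the enzyme that makes retinoic acid in somites, fell from 1346, 1166 and 1056 TPM at 96h to 35.5, 41.7 and 45.5 TPM in Gastruloid (4.83 ± 0.12, adjusted p = 8.66e-12). Rarb, a receptor that retinoic acid induces, fell from 10.3, 12.9 and 12.4 TPM in TLSMG to 2.52, 2.96 and 1.92 TPM in TLSMGC (1.90 ± 0.21, adjusted p = 1.05e-05). Stra6, a retinol transporter, rose by 2.94 ± 0.15 in the same comparison (adjusted p = 1.11e-08). With LDN, Aldh1a2 rose by 0.82 ± 0.12 (adjusted p = 0.00556) and Crabp1 by 0.78 ± 0.17 (adjusted p = 0.0475), a call that was lost with replicate number as a block (0.086), with no filter (0.114), without any 1 TLSMGC or TLSMGCL library (0.0689 to 0.169) and without 5 of the other 9, which were 96h replicate 2 or 3, Gastruloid replicate 3, and TLSMG replicate 1 or 3 (0.0557 to 0.0668).

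**Figure D4:**
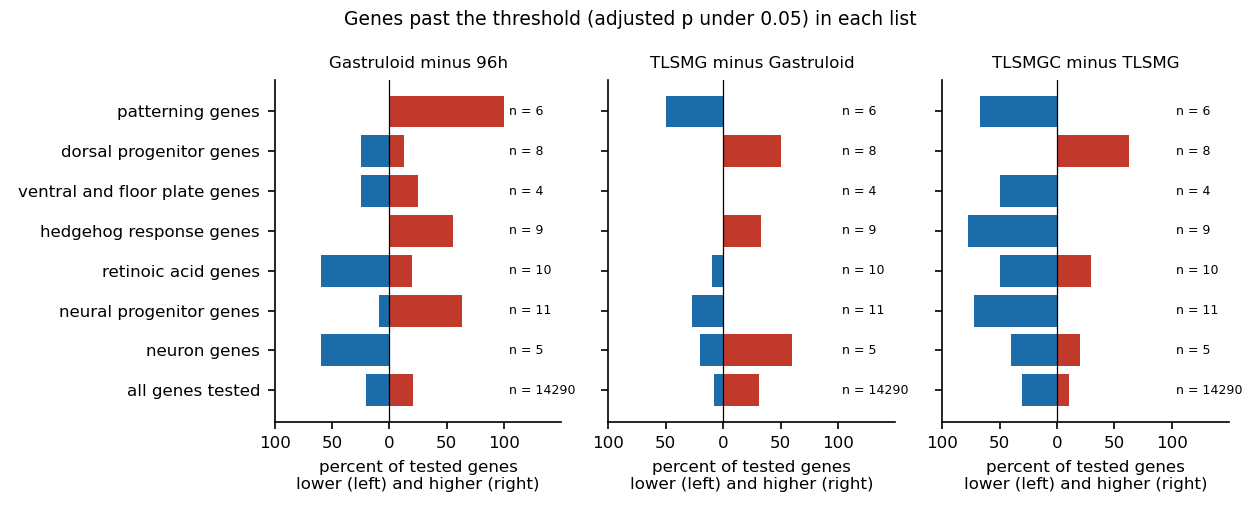
Share of tested genes past the threshold as lower (left, blue) or higher (right, red) in 6 gene lists, the patterning genes and all 14290 genes, for 3 comparisons; n is the number tested. In TLSMGC against TLSMG the bars of patterning, hedgehog and neural progenitor genes point left (hedgehog 7 of 9, or 3 after median-of-ratios scaling), and the bar of dorsal progenitor genes points right for the 8 of 20 that passed the filter (5 higher and 5 lower of 20 without it).

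Marker sums of other cell types also moved. Endothelium markers summed to 27.8 to 36.1 TPM in Gastruloid, 217 to 265 TPM in TLSMG and 20.8 to 65.7 TPM in TLSMGC, and presomitic and tailbud markers to 210 to 276 TPM in TLSMG and 387 to 500 TPM in TLSMGC. Gut endoderm markers summed to 89.1 to 134 TPM in TLSMG and 42.1 to 80.6 TPM in TLSMGC, with none listed at 0 throughout a group. What these shifts contribute to the levels of the 9 genes was not tested. Of 18 neuron genes 5 were tested, 3 of which were lower in Gastruloid than at 96h, against 20.5% of all genes. In TLSMGC against TLSMG 1 was higher and 2 were lower, against 10.4% and 30.5% of all genes. The higher gene was Evx1 (1.81 ± 0.20, adjusted p = 1.05e-05), which tailbud cells also make.

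Single libraries differed within the 2 groups that express the set. In Gastruloid, replicate 1 was the highest for 6 of the 9 genes. How often it was highest over all genes was not counted. Its Dbx1 level, on the TPM + 1 scale, was 7.52 times that of the next library, the highest such ratio among 14290 genes, and its Pax6 ratio was 2.69, rank 14. Foxe3, a forkhead gene, had rank 4, with 18.3 TPM against 3.36 and 4.13 TPM. Among the ventral genes Nkx6-2 was also highest in replicate 1, at 1.00 against 0.608 and 0.710 TPM. Olig2 and Nkx6-1 were not, Olig2 being at 3.65 against 2.87 and 3.89 TPM and Nkx6-1 at 3.68 against 3.46 and 3.93 TPM. Sox1 in the same libraries was at 32.1, 27.4 and 20.7 TPM. For Pax6 the size of the excess depended on the measure: coverage divided by depth was 3.01, 1.48 and 1.41 in the 3 Gastruloid libraries, a smaller ratio than in TPM.

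In TLSMG, replicate 1 was the lowest library for 6 of the 9 genes, and replicate 2 was the highest for Pax6, Irx3, Irx5 and Olig3. Replicate 2 was also the highest for 11 of 18 intermediate and dorsal progenitor genes above 0, among them Wnt1 (0.272, 1.50 and 0.360 TPM), Zic1 and Msx1, and replicate 1 was the lowest for 14 of the 18. This was not particular to dorsal genes. Among 12 general neural progenitor genes, replicate 2 was the highest for 10 and replicate 1 the lowest for all 12. Lists of other cell types leaned to other libraries: replicate 3 was the highest for 9 of 10 somite markers, and replicate 1 for 7 of 8 gut endoderm markers. How often each replicate was highest or lowest over all genes was not counted, so these counts have no background. Replicate 2 had the lowest Nkx6-1, Nkx6-2 and Olig2 of the group. The margin to replicate 3 was narrow for Nkx6-2 (0.225 against 0.255 TPM) and Olig2 (2.37 against 2.45 TPM). Among 11 ventral and floor plate genes above 0, replicate 2 was the lowest for 5 and the highest for 2. It was also the lowest for all 8 gut endoderm markers.

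**Figure D5:**
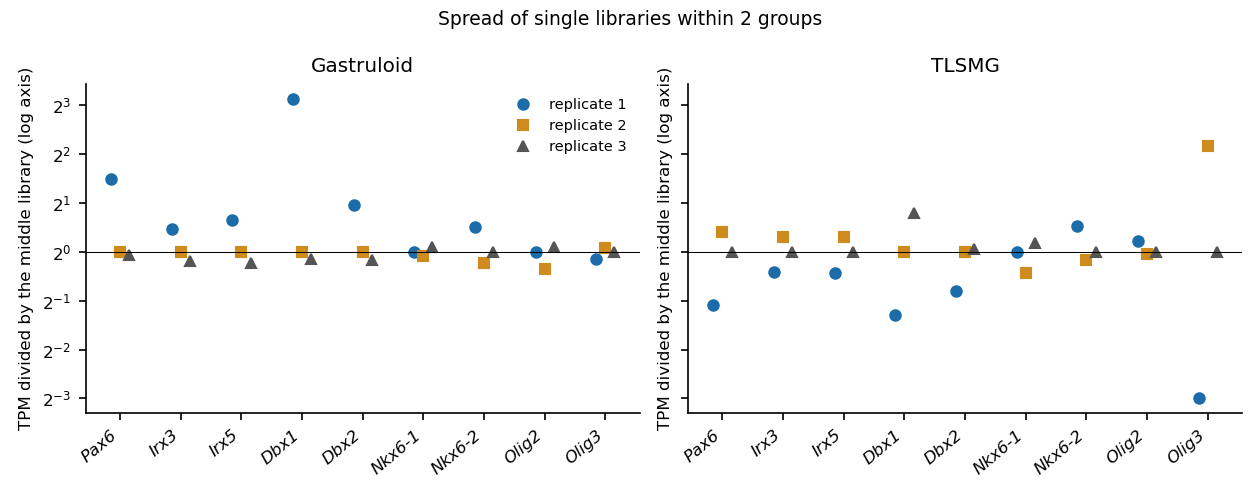
TPM of each library divided by the middle library of its group, for the 9 genes in Gastruloid and TLSMG, on a log axis of base 2. Gastruloid replicate 1 lies well above the others for Dbx1 and Pax6, and TLSMG replicate 2 lies above and replicate 1 below for Olig3.

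Across the 15 libraries, which share groups and depth, the genes with the most similar profiles were listed as a description by Pearson's r of log2(TPM + 1). For Pax6 these were Scube2 (r = 0.988), Rfx4 (0.986) and Hs3st1 (0.985), and for Irx3 they were Ndn (0.983), Sox21 (0.982) and Lsamp (0.977). Irx5 had Cdca3 (0.937), Ednrb (0.932) and Irx3 (0.931), and Dbx1 had Foxe3 (0.994), Fndc5 (0.960) and Trip6 (0.940). Olig2 had Tox2 (0.985), Nrg1 (0.983) and Gm6750 (0.982). Nkx6-1 had no comparable partner, its best being Cenpn (0.861) and Slc16a1 (0.858). Within the set r was 0.98 for Pax6 with Irx3 and for Dbx1 with Dbx2, and 0.95 for Pax6 with Olig2.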

How the data were processed

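Bulk RNA was measured in 15 libraries of 5 groups, 3 each. The submitters' processing notes name cutadapt 2.4, STAR 2.7.3a, StringTie 2.0 and mm10; the labels describe stranded libraries of polyadenylated RNA. The deposited TPM values, per the file headers, are StringTie gene abundances, 1 table per library. Deposited FPKM values, a column beside TPM per the file headers, served as an alternative. The deposited coverage, also per the file headers, was used as a signal to compare depth and entered no test. The annotation release is not given in the sources used here; 54409 of 54446 gene IDs matched GENCODE M21 and 53499 had the same position, so coordinates are on GRCm38. Rows of 1 gene ID were summed. No columns of per-sample values were left unused (0). Single-cell and NanoString samples were not analysed here.

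Genes with a mean of at least 1 TPM were fitted as log2(TPM + 1) in R 4.3.3 with limma 3.58.1 (moderated test with trend, group means, two-sided, Benjamini-Hochberg over all genes of a comparison), and 10 comparisons were made. The script was tested on simulated data. Promoters came from a RefSeq table. Alternatives were a pseudocount of 0.1, no filter, a mean of at least 5 TPM, FPKM, median-of-ratios scaling, only the groups compared, replicate number as a block, and leaving out each library. The members and lists were chosen with earlier results of these data known. Of other lists, up to 3 genes per comparison were named, those with the largest absolute difference past the threshold; genes outside this rule (Wnt1, Lmx1a, Prdm13, Shh, Nkx2-2, Fto, Irx3os, Foxe3, and those named for an unadjusted p) were added after their values were seen.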

Additional observations from a re-analysis of the deposited data

How the results depend on the processing

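Of 390 values of single genes under settings other than leaving out a library, 361 kept their direction and side of the threshold, 17 lost a call and 12 gained one; none changed direction. Leaving out 1 library kept 848 of 900, lost 36 calls, gained 7 and turned 9 uncalled differences. Over these fits Irx5 ranged from -0.23 to 0.32 in TLSMGC minus 96h, and in TLSMGCL minus 96h Irx3 from -0.23 to 0.24 and Irx5 from -0.095 to 0.46. Nkx6-1 ranged from -0.032 to 0.32 in TLSMGC minus TLSMG. In TLSMGCL minus TLSMGC, Irx5 ranged from -0.0080 to 0.26, Olig2 from -0.014 to 0.11 and Dbx1 from 0 to 0.022.

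A mean of at least 5 TPM left 3 of the genes to test, and the count past the threshold became 3 for Gastruloid minus 96h, TLSMGCL minus TLSMG, TLSMGC minus Gastruloid, TLSMGCL minus Gastruloid and both F tests, and 0 for TLSMGC minus 96h, TLSMGCL minus 96h and TLSMGCL minus TLSMGC. With no filter the count was 1 for TLSMGC minus 96h and 0 for TLSMGCL minus TLSMGC; for TLSMG minus Gastruloid it was 3 as before, but with Dbx2 and Nkx6-2 in place of Pax6 and Irx3. Median-of-ratios scaling and FPKM each gave 5 for TLSMG minus Gastruloid. Fitting only the groups compared gave 0 for TLSMGCL minus TLSMGC, where 42 of all genes passed against 169. Leaving out 1 library gave counts of 1 to 2 for TLSMGC minus 96h, 1 to 4 for TLSMG minus Gastruloid, 0 to 1 for TLSMGCL minus TLSMGC, and 56 to 198 for all genes in the last. The cause of these shifts was not tested beyond the fewer genes or libraries in a fit.

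With replicate number as a replicate block, the count for TLSMG minus Gastruloid was 2 against 3, with Pax6 at an adjusted p of 0.0624, and no other count of patterning genes changed. The replicate numbers did not pair libraries: over 30 same-numbered pairs of groups, deviations from group means correlated at -0.02 on average (-0.18 to 0.10), and 1 pair was over 0.1. The tables hold no read counts, so depth limits are unknown for genes under about 1 TPM, and 3 libraries a group leave intervals wide for the uneven genes.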

Other observations

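Among neighbours of the set, Crnde, the transcript that starts beside Irx5 on the opposite strand, rose from 4.11, 2.86 and 1.87 TPM at 96h to 10.7, 6.33 and 5.77 TPM in Gastruloid (1.12 ± 0.21, adjusted p = 0.00093, limma). Elp4, next to Pax6, held 27.6, 27.3 and 27.8 TPM in TLSMG and 23.4, 23.2 and 21.9 TPM in TLSMGC, a difference of -0.26 ± 0.07 (adjusted p = 0.00928) that was -0.096 after median-of-ratios scaling (adjusted p = 0.253) and missed the threshold with FPKM (0.0754). Rpgrip1l, beyond Fto from Irx3, held 4.71, 4.61 and 4.51 TPM in Gastruloid and 7.05, 7.42 and 7.58 TPM in TLSMG, a rise of 0.57 ± 0.14 (adjusted p = 0.00589).

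Foxe3 was listed at 0 in all 9 libraries of 96h, TLSMGC and TLSMGCL, as Dbx2 was in all 6 with CHIR. Foxe3 was chosen after its values were seen.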
